A study of Homo sapiens with 6 samples.

Results

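The 32 genes described here encode the enzymes and regulators of sterol and fatty acid synthesis, the gene module controlled by the sterol regulatory element binding proteins (SREBP). They were taken by gene symbol from a table of 35993 genes, in which all 32 were listed, and were placed in 4 step groups: 7 genes of the mevalonate steps from acetyl-CoA to farnesyl diphosphate, 11 genes of the late steps to cholesterol, 6 regulators and sterol transport genes, and 8 fatty acid genes. Of these, 31 passed the filter on low counts and were tested among 14728 genes. The sterol transfer protein gene STARD4 did not pass, with 0, 5 and 4 reads in the untreated libraries and 0 reads in each of the 3 rhCYGB libraries.

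The cells were MIA PaCa-2, an established human pancreatic carcinoma line, and each group was 3 RNA-seq libraries. The untreated libraries are labelled as controls, and no vehicle or inactive protein is named for them. The rhCYGB libraries came from cells given 4 µM recombinant human cytoglobin, a His-tagged globin made in E. coli, for 48 h. Cells of both groups had been moved from growth medium with 10% FBS and 2.5% horse serum to medium with 1% FBS before the treatment, so that low serum was common to both, serum being a source of sterols and fatty acids. The labels do not say whether the 3 libraries of a group came from separate cultures, so that the p-values below measure the spread between these libraries, which may be technical.

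As background, cells that lack sterol release the SREBP precursors from the endoplasmic reticulum. SCAP escorts the precursors to the Golgi, where proteases free the part that enters the nucleus and raises transcription of synthesis and uptake genes. INSIG proteins hold SCAP back when sterol is plentiful. The product of SREBF2 acts mainly on sterol genes and the main product of SREBF1 mainly on fatty acid genes. In pancreatic carcinoma, as in other tumours, these pathways supply membrane lipids and the isoprenoid anchors of small GTPases such as RAS.

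Transcripts of nearly the whole module were lower after rhCYGB. Reads assigned to the 32 genes made up 0.919%, 0.910% and 0.910% of all counts in the untreated libraries and 0.361%, 0.367% and 0.369% in the rhCYGB libraries. The p-values came from edgeR (quasi-likelihood) and were adjusted by Benjamini-Hochberg over the 14728 genes tested, here called all genes. At an adjusted p under 0.05, 28 members fell and 3 rose, where 38.6% of all genes fell and 39.0% rose. A change of at least 2-fold at that threshold was found for 19 members, all lower, and for 0 members in the other direction, against 14.7% of all genes lower and 12.4% higher. The same 28 members had every rhCYGB library below every untreated library, and the same 3 had every rhCYGB library above, an ordering seen in 39.7% and 39.8% of all genes. The median log2 fold change of the 31 members was -1.28, and that of all genes was -0.0046, with their 25th and 75th percentiles at -0.62 and 0.56.

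The step groups differed in the size of the fall. The median log2 fold change was -1.60 over the 7 mevalonate genes, -1.28 over the 11 late sterol genes, -0.16 over the 5 regulators tested and -1.27 over the 8 fatty acid genes. On the FPKM scale, which corrects for transcript length and lets levels of different genes be added, the summed level of the mevalonate genes was 581 to 593 in untreated and 136 to 141 in rhCYGB libraries, so that 23.7% was left. The late sterol genes kept 39.4% of their summed FPKM, the fatty acid genes 39.6% and the regulators 66.0%. The weight of the member of highest level in these sums differed between the groups. Without it the mevalonate genes (FDPS left out) kept 37.7%, the late sterol genes (FDFT1) 38.5%, the fatty acid genes (SCD) 32.9% and the regulators (INSIG1) 93.0%. The mevalonate share was therefore close to that of the late sterol genes once FDPS was left out. In each of the 4 groups the libraries of one condition lay wholly apart from those of the other.

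**Figure D1:**
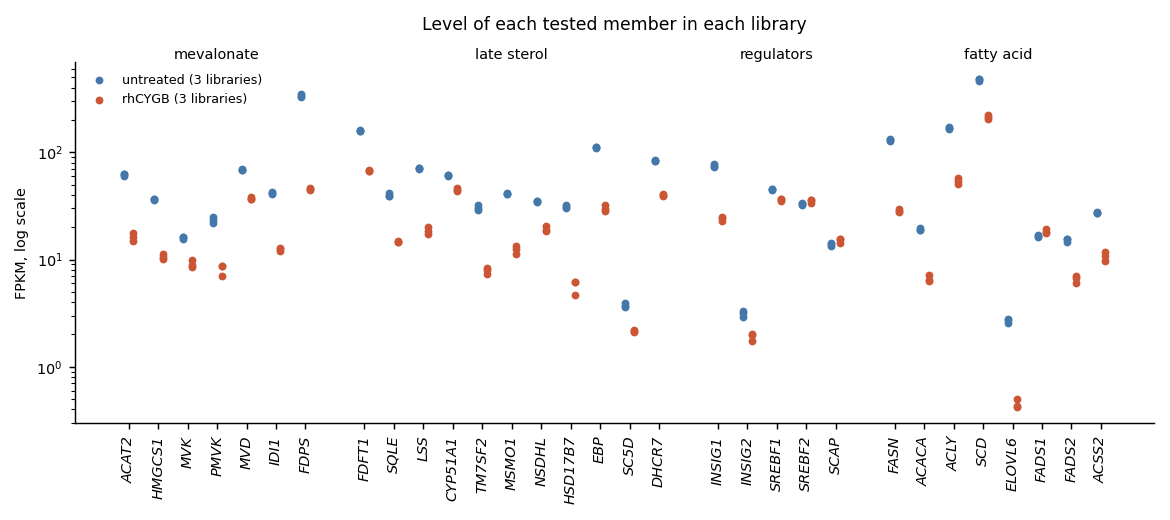
FPKM, on a log axis, of the 31 members tested, with 1 point for each of the 3 untreated (blue) and 3 rhCYGB (red) libraries, grouped by step. The points of a gene lie close together within a condition, and the red points lie below the blue ones except for SREBF2, SCAP and FADS1.

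Levels spanned a wide range before treatment. SCD, the desaturase that makes oleate from stearate, had the highest level of the members, 476 ± 8.85 FPKM (SD, n = 3), followed by FDPS at 338 ± 9.20 FPKM and ACLY at 169 ± 3.46 FPKM. ELOVL6, which extends palmitate to stearate, had the lowest level of those tested, 2.72 ± 0.122 FPKM. After rhCYGB, SCD remained the highest at 214 ± 8.10 FPKM and ELOVL6 the lowest at 0.452 ± 0.0408 FPKM. FDPS had fallen from the second place to the fourth, at 45.2 ± 0.977 FPKM, behind FDFT1 at 67.3 ± 0.944 FPKM and ACLY at 54.1 ± 3.58 FPKM, and it did not differ beyond the spread from CYP51A1 at 44.9 ± 1.46 FPKM.

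The proximal promoters are shown because the members moved together and because the motifs that SREBP and its partner NF-Y recognise lie close to the start of many such genes. The windows are the 250 bases before the start of RefSeq transcripts on GRCh38.p14, printed 5′ to 3′ on the strand of the gene, and 28 of the 32 members had at least 1. ACAT2, FDFT1, SQLE and FASN were not matched. Capitals mark matches to 3 motifs searched on both strands, namely the sterol regulatory element TCACNCCAC, the E-box CACGTG and the NF-Y recognition letters CCAAT, which appear as their reverse complement where they lie on the other strand. The first 3 sequences belong to genes that fell and the last 2 to genes that rose.
FDPS, chr1:155308616-155308865, + strand: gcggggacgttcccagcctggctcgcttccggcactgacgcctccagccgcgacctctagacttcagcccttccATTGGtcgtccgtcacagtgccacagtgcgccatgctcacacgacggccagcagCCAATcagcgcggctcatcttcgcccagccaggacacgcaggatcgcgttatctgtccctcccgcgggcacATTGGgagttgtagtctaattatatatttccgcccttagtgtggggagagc
HMGCS1, start 1, chr5:43313413-43313662, - strand: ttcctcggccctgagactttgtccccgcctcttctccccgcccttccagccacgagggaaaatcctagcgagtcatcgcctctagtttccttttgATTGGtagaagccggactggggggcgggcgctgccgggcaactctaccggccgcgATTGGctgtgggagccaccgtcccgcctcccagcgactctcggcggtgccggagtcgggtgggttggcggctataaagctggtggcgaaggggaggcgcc
INSIG1, chr7:155297628-155297877, + strand: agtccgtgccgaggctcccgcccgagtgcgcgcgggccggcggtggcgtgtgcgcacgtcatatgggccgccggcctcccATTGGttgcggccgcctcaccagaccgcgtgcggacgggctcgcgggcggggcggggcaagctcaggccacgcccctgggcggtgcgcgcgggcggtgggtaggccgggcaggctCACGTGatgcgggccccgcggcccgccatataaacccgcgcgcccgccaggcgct
SREBF2, chr22:41832855-41833104, + strand: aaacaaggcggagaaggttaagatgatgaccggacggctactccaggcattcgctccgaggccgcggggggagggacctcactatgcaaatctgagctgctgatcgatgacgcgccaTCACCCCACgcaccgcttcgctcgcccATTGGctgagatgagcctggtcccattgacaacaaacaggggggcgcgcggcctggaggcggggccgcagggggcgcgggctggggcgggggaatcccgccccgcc
SCAP, chr3:47475942-47476191, - strand: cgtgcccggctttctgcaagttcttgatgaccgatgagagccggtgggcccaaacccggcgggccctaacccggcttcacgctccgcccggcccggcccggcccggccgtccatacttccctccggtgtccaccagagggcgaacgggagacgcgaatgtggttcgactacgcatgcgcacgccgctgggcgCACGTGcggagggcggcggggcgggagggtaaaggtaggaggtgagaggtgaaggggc

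FDPS carried 3 CCAAT matches, 176, 122 and 51 bases before the start. HMGCS1 carried a pair at 155 and 100 bases, and INSIG1 had 1 at 170 bases together with an E-box at 55 bases. A CCAAT match was present in 20 of the 28 members (71.4%), against 40.9% of 11072 tested genes with a window, and in 61.5% of the 39 member windows against 32% of all 35116 windows. The members without one were PMVK, CYP51A1, INSIG2, SREBF1, SCAP, ELOVL6, FADS1 and FADS2. They include 2 of the 3 genes that rose, SCAP and FADS1, while SREBF2, which also rose, had a match. They also include PMVK, ELOVL6 and FADS2, which each fell by more than 2-fold. SREBF2 alone held the full sterol regulatory element, 133 bases before the start, and 1.07% of tested genes with a window held it. The shorter CACNCCAC, which lies inside the full element and was searched after the first result had been seen, matched in 6 members (21.4%) and in 6.41% of tested genes. The E-box was about as frequent in members (10.7%) as in tested genes (11.2%). CCAAT matches on opposite strands can share letters, and a match is a description of the letters in a window, not evidence of binding.

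**Figure D2:**
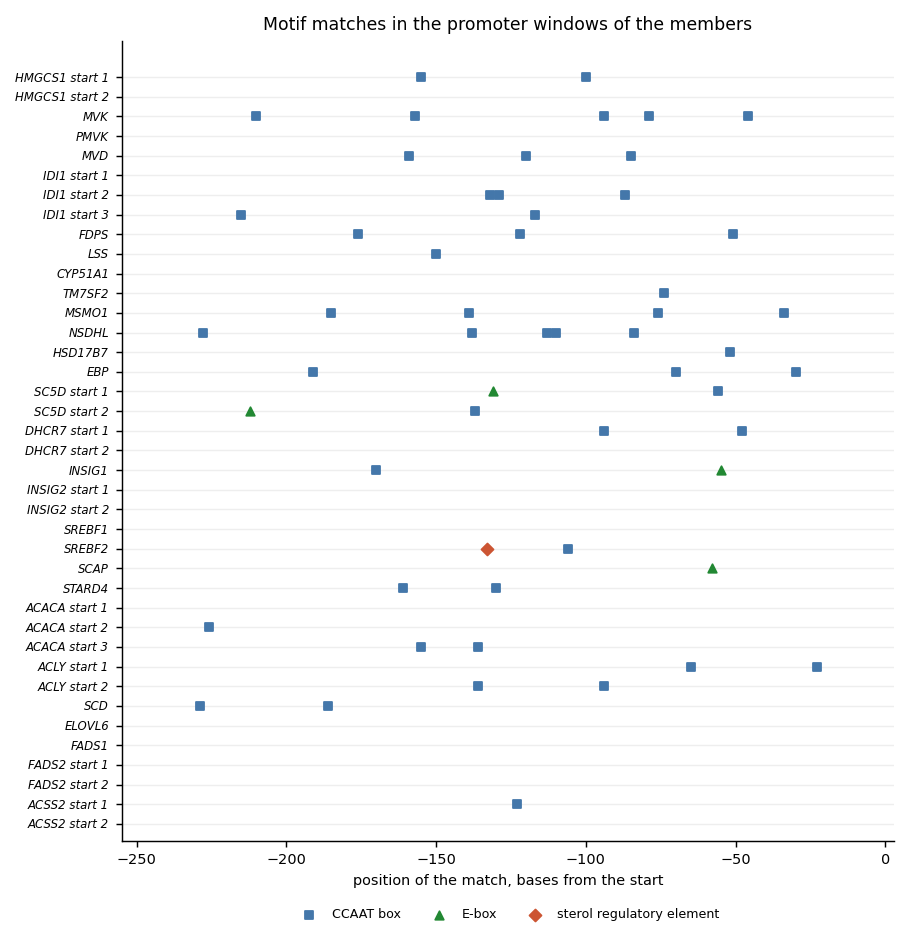
Positions of CCAAT (blue squares), E-box (green triangles) and full sterol regulatory element matches (red diamond) in the 39 promoter windows of 28 members, with the distance from the transcript start in bases on the x axis. CCAAT matches recur in 24 windows, and the only full sterol regulatory element is that of SREBF2, 133 bases before the start.

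Genes of the mevalonate steps, which turn acetyl-CoA into the isoprenoid farnesyl diphosphate, all fell, 5 of 7 by at least 2-fold. The largest fall of all members was in FDPS, farnesyl diphosphate synthase, which the deposited transcript table places on chromosome 1 from 155278539 to 155290457 in a build it does not name. FDPS was at 466, 451 and 437 CPM (reads scaled to a common library size with TMM factors) in the untreated libraries and at 67.9, 71.0 and 64.6 CPM in the rhCYGB libraries. Its log2 fold change was -2.73 with a standard error (SE) of 0.044 and a 95% interval of -2.83 to -2.64 (adjusted p = 3.65e-16), so that 15% of the CPM was left. All 3 rhCYGB libraries lay far below all 3 untreated ones, and the 14.9 and 3.21 CPM SDs of the 2 groups were small beside the gap.

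HMGCS1, which condenses acetyl-CoA and acetoacetyl-CoA, was at 210, 211 and 205 CPM in untreated and 63.8, 68.3 and 70.0 CPM in rhCYGB libraries (log2 fold change -1.63, SE 0.042, adjusted p = 3.67e-14). ACAT2, the thiolase that makes acetoacetyl-CoA, fell by 1.77 on the log2 scale (SE 0.058), from 101 ± 2.28 to 29.7 ± 2.71 CPM. IDI1, which isomerises isopentenyl diphosphate, fell by 1.60 (SE 0.046), from 134 ± 2.86 to 44.2 ± 2.32 CPM. These 3 genes each kept about the same share of their reads, 32.2%, 29.4% and 33.1%. The 3 enzymes that act in a row on mevalonate differed more from each other. PMVK, phosphomevalonate kinase, fell by 1.37 (SE 0.091), while mevalonate kinase, MVK, fell by 0.65 (SE 0.060) and the decarboxylase MVD by 0.73 (SE 0.040), so that 38.9% of the CPM of PMVK, 63.9% of that of MVK and 60.5% of that of MVD was left. ACAT2 shares 615 bases with TCP1 and 237 with SOD2 in the deposited positions, and IDI1 shares 320 with WDR37. Whether the counts used strand is not stated, so reads in these stretches cannot be assigned with certainty.

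The 11 late sterol genes, which lead from farnesyl diphosphate through squalene and lanosterol to cholesterol, fell without exception, 7 of them by at least 2-fold. HSD17B7, the 3-ketosteroid reductase of the pathway, fell the most, from 52.6, 50.0 and 48.8 CPM to 11.3, 8.75 and 11 CPM (log2 fold change -2.28, SE 0.078, adjusted p = 7.61e-13). LSS, which closes squalene epoxide into lanosterol, went from 363, 365 and 358 CPM to 102, 103 and 105 CPM (log2 fold change -1.81, SE 0.036, adjusted p = 2.33e-15). EBP, the sterol isomerase, went from 137, 133 and 134 CPM to 43.0, 39.6 and 39.7 CPM (log2 fold change -1.73, SE 0.045, adjusted p = 4.02e-14). In none of these genes did a library of one group come near the other group. HSD17B7 has pseudogenes of close sequence, between which and the gene reads may be split.

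TM7SF2, a C14 sterol reductase, fell by 1.76 on the log2 scale (SE 0.062) and MSMO1, the C4 methyl oxidase, by 1.56 (SE 0.053). SQLE, which epoxidises squalene and is a rate-limiting enzyme of the pathway, fell by 1.28 (SE 0.043), and FDFT1, squalene synthase, by 1.07 (SE 0.036). DHCR7, which catalyses a last reduction to cholesterol, fell by 0.91 (SE 0.036), the C4 dehydrogenase NSDHL by 0.65 (SE 0.049) and the desaturase SC5D by 0.62 (SE 0.058). These last 3 were under 2-fold, and 53.3%, 63.6% and 64.9% of their CPM was left.

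CYP51A1, the lanosterol demethylase, stood apart from its neighbours in the pathway. It was at 209, 202 and 205 CPM in untreated and at 175, 171 and 165 CPM in rhCYGB libraries (log2 fold change -0.27, SE 0.037, adjusted p = 8.52e-06). The groups did not overlap, but 82.9% of the CPM was left, against 28.5% for LSS, which makes the substrate of CYP51A1, and 29.5% for TM7SF2, which acts next. The 95% interval of the change was -0.35 to -0.19 for CYP51A1 and -1.89 to -1.73 for LSS. Over the alternatives the change of CYP51A1 ranged from -0.44 to -0.24.

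**Figure D3:**
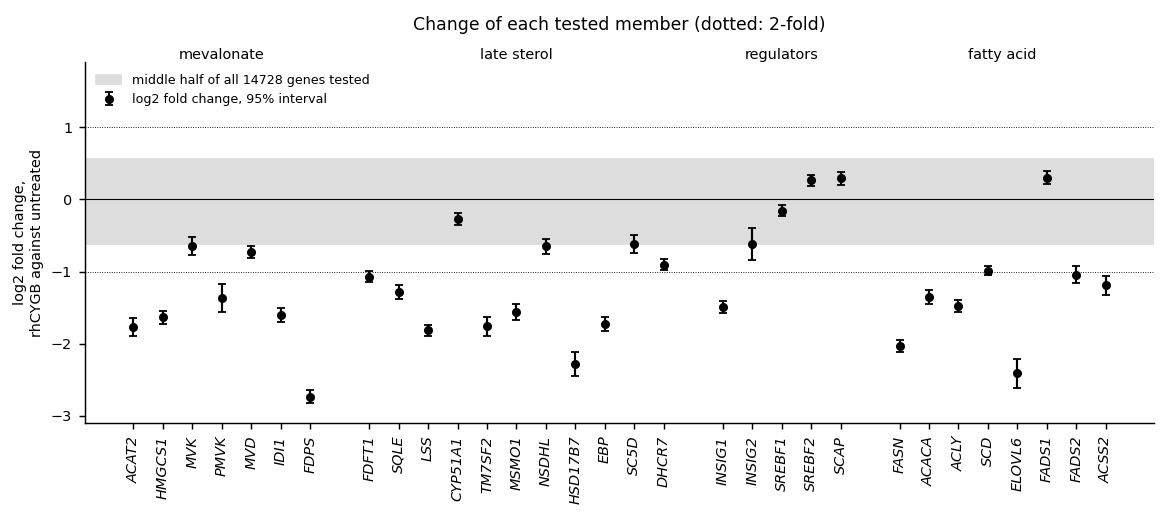
Log2 fold change, rhCYGB against untreated, of the 31 members tested, with 95% intervals from the edgeR fit, beside the 25th to 75th percentile of all 14728 genes tested (grey) and the 2-fold lines (dotted). FDPS is the lowest point, 3 points (SREBF2, SCAP and FADS1) lie above 0, and CYP51A1 lies well above the other late sterol genes.

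Among the regulators, the feedback gene INSIG1 fell while the genes of the sensing and transcription machinery changed little. INSIG1, itself a textbook SREBP target, was at 232, 244 and 238 CPM in untreated and at 87.3, 82.4 and 84.3 CPM in rhCYGB libraries (log2 fold change -1.49, SE 0.039, adjusted p = 4.49e-14). INSIG2, the paralog that is less dependent on SREBP, went from 11.3, 12 and 12.7 CPM to 8.40, 6.79 and 8.30 CPM (log2 fold change -0.61, SE 0.103, adjusted p = 6.45e-05). Both fell, with no overlap between the groups, and INSIG1 fell further. INSIG1 had 18.8 to 20.6 times as many CPM as INSIG2 in untreated libraries and 10.2 to 12.1 times as many in rhCYGB libraries.

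The transcription factor genes moved in opposite directions. SREBF1 was at 239, 242 and 238 CPM in untreated and at 209, 222 and 214 CPM in rhCYGB libraries (log2 fold change -0.16, SE 0.036, adjusted p = 0.00119). SREBF2 was at 188, 189 and 181 CPM in untreated and at 225, 220 and 225 CPM in rhCYGB libraries (log2 fold change 0.27, SE 0.036, adjusted p = 6.33e-06). SCAP, the escort protein gene, was at 60.1, 62.7 and 60.7 CPM and then at 76.0, 73.0 and 75.7 CPM (log2 fold change 0.29, SE 0.043, adjusted p = 1.58e-05). In all 3 the groups stayed apart, but the changes lay between the 25th and 75th percentiles of all genes. The rises depend on the unit. With limma on log2(FPKM + 1), SREBF2 had an adjusted p of 0.0622 and SCAP of 0.0545, on log2 fold changes of 0.09 and 0.12. Over all 15 alternatives, the log2 fold change ranged from 0.09 to 0.28 for SREBF2, from 0.12 to 0.31 for SCAP and from -0.32 to -0.12 for SREBF1.

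The balance between genes of a pair was compared in each library as a log2 ratio of CPM, for 4 pairs chosen after their values had been seen, by exact two-sided permutation tests over the 6 libraries. The smallest p that 3 against 3 libraries allow is 0.1, so no pair could pass the threshold, and each reached 0.1, also after adjustment over the 4 pairs. The SCAP to INSIG1 ratio was 0.259, 0.257 and 0.255 in untreated libraries and 0.871, 0.885 and 0.898 in rhCYGB libraries, a difference of 1.78 on the log2 scale. The SREBF1 to SREBF2 ratio went from 1.27 to 1.31 in untreated libraries down to 0.929 to 1.01 in rhCYGB libraries (log2 difference -0.42), and the INSIG1 to INSIG2 ratio differed by -0.87. The FADS1 to FADS2 ratio was 1.53 to 1.57 in untreated and 3.75 to 4.13 in rhCYGB libraries (log2 difference 1.35).

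Of the 8 fatty acid genes 7 fell, 6 of them by at least 2-fold, and FADS1 rose. Genes of the supply and synthesis steps each fell. ACLY, which makes cytosolic acetyl-CoA from citrate, was at 771, 776 and 791 CPM in untreated and at 276, 270 and 295 CPM in rhCYGB libraries (log2 fold change -1.48, SE 0.039, adjusted p = 4.34e-14). ACSS2, which makes it from acetate, fell by 1.19 on the log2 scale (SE 0.062), and ACACA, the acetyl-CoA carboxylase that commits it to fatty acids, by 1.35 (SE 0.045). FASN, fatty acid synthase, was at 1227, 1177 and 1152 CPM in untreated and at 279, 294 and 298 CPM in rhCYGB libraries (log2 fold change -2.03, SE 0.039, adjusted p = 1.62e-15), so that 24.5% of its CPM was left.

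The steps after palmitate were less uniform. ELOVL6 was at 20.0, 18.1 and 19.2 CPM in untreated and at 3.39, 3.46 and 3.88 CPM in rhCYGB libraries (log2 fold change -2.41, SE 0.097, adjusted p = 4.28e-12). SCD was at 2704, 2634 and 2702 CPM and then at 1351, 1324 and 1367 CPM (log2 fold change -0.99, SE 0.029, adjusted p = 1.39e-13). SCD therefore lay just outside the 2-fold threshold, at 1.99-fold lower, and FADS2 just inside it, at 2.06-fold lower. The groups were far apart for both, and 18.8% of the CPM of ELOVL6 and 50.3% of that of SCD was left. The log2 fold change of ELOVL6 ranged from -2.58 to -1.36 over the alternatives, the latter with limma on log2(FPKM + 1), where its level is near the added 1, and that of FASN from -2.20 to -1.99.

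FADS1 and FADS2, neighbouring desaturase genes of polyunsaturated fatty acid synthesis on chromosome 11, moved apart. FADS1 was at 76.5, 78.4 and 78.2 CPM in untreated and at 93.3, 95 and 99.3 CPM in rhCYGB libraries (log2 fold change 0.30, SE 0.041, adjusted p = 6.86e-06). FADS2 was at 48.7, 51.3 and 50.6 CPM and then at 24.9, 23.0 and 25.1 CPM (log2 fold change -1.04, SE 0.054, adjusted p = 8.78e-11). Every library of each gene followed its group. The rise of FADS1 lay between the 25th and 75th percentiles of all genes, and over the alternatives its log2 fold change ranged from 0.13 to 0.33. The genes share 801 bases in the deposited positions, from 61583675 to 61584475, so some reads there could count for either.

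The transcript table holds the assembler's division of reads among RefSeq transcripts, and in that division the change differed between the transcripts of some members. Transcripts were tested among 32577, of which 14.8% fell and 15.1% rose at the same threshold. In HMGCS1, NM_001098272 held 48.3% to 51.3% of the gene's transcript counts in untreated and 12% to 25.7% in rhCYGB libraries, and its counts fell by 3.21 on the log2 scale (SE 0.260, adjusted p = 0.000505). NM_002130 fell by 1.60 (SE 0.205, adjusted p = 0.00291). NM_001324223 and NM_001324222 rose, by log2 fold changes of 2.97 (adjusted p = 0.00536) and 2.59 (adjusted p = 0.00352), and the share of NM_001324223 went from 0.573% to 0.855% up to 9.50% to 23.3%. These 4 transcripts have the same first and last base in the deposited positions, and they held 93.2% and 95.7% of the transcript counts of the gene in the 2 groups.

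In ACACA, NM_198838, chosen after its values had been seen, had 715, 1106 and 1743 reads in the untreated libraries and 6, 9 and 5 in the rhCYGB libraries (log2 fold change -7.32, SE 0.507, adjusted p = 0.000281). Its share of the gene's transcript counts went from 9.92% to 21.0% down to 0.164% to 0.356%, while the main transcript, NM_198836, fell by 1.24 on the log2 scale (SE 0.179, adjusted p = 0.0046). The third, NM_198834, had a log2 fold change of -1.15 that did not pass (adjusted p = 0.201). In IDI1, also chosen after the values were seen, NM_004508 fell by 1.97 (SE 0.063, adjusted p = 2.28e-05), whereas NR_134301, a transcript without a protein in the table, rose from 135, 221 and 210 reads to 306, 320 and 329 (log2 fold change 0.88, SE 0.215, adjusted p = 0.0296). This rise passed only with all 6 libraries, with an adjusted p of 0.0556 to 0.0839 when any 1 was left out. In NSDHL, again chosen after the values were seen, NM_001129765 held 42.1% to 52.1% in untreated and 15.4% to 32.9% in rhCYGB libraries. Its log2 fold change was -1.67 (SE 0.310, adjusted p = 0.0113), and that of NM_015922 was -0.22 and did not pass (adjusted p = 0.199).

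**Figure D4:**
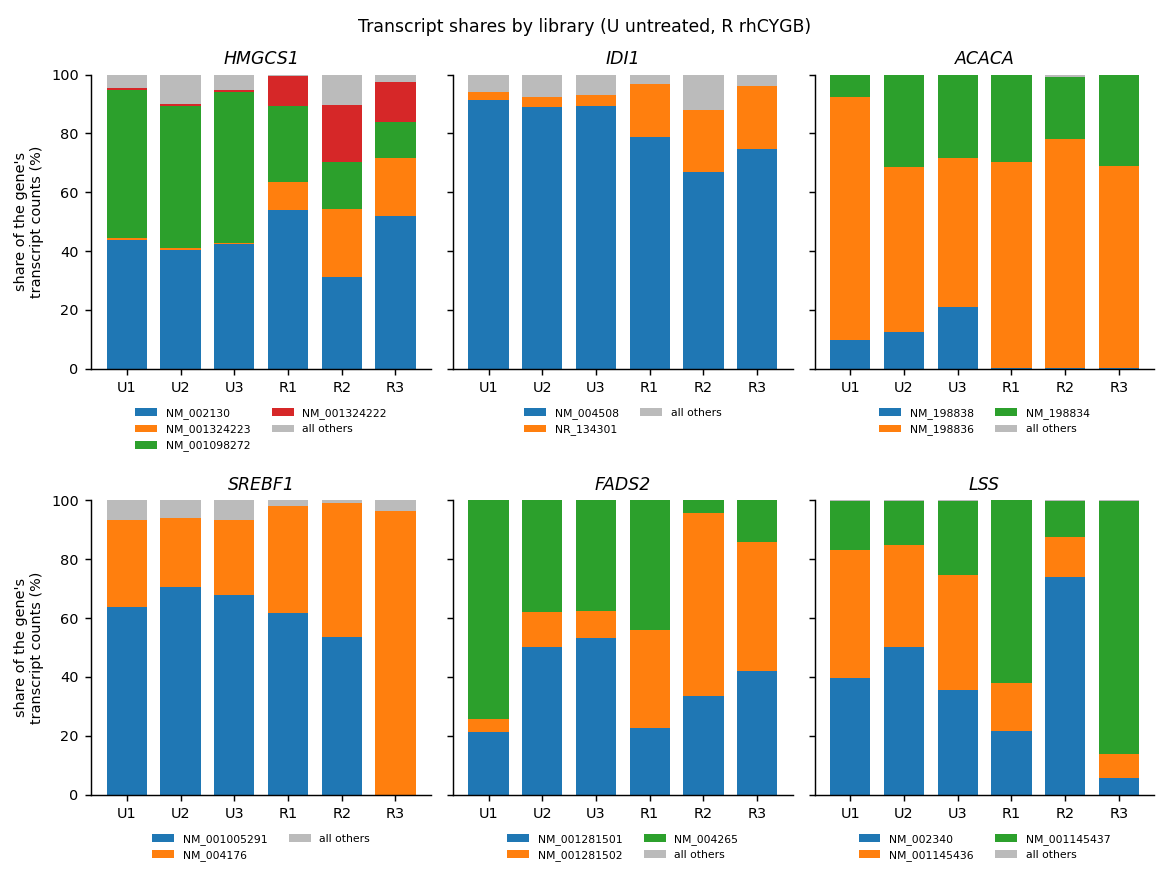
Share, in percent, of a gene's transcript counts held by each transcript with at least 10% in either group, for HMGCS1, IDI1, ACACA, SREBF1, FADS2 and LSS, with 1 bar for each untreated (U) and rhCYGB (R) library. The bars of IDI1 differ more between than within conditions, whereas 1 library stands apart in SREBF1 (R3) and in ACACA (U1), and the rhCYGB libraries of HMGCS1 and the libraries of LSS and FADS2 vary within a condition.

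For SREBF1, LSS and FADS2 the division among transcripts varied between libraries of a group. In SREBF1, NM_001005291 held 63.9% to 70.7% in untreated libraries and 61.7%, 53.6% and 0% in rhCYGB libraries, where the third library gave 96.4% to NM_004176. Neither transcript passed the test with all libraries (adjusted p = 0.696 and 0.129). Without that library, NM_001005291 had a log2 fold change of -0.45 and an adjusted p of 0.0133. In LSS, NM_001145436 fell by 3.52 (SE 0.261, adjusted p = 0.000359), while NM_002340 held 21.7%, 74.0% and 5.54% in the 3 rhCYGB libraries and did not pass (adjusted p = 0.135). In FADS2, NM_001281502 held 4.63% to 11.8% in untreated and 33.1% to 62.2% in rhCYGB libraries, with a log2 fold change of 1.28 that did not pass (adjusted p = 0.0819). Shares that did not overlap had an exact two-sided permutation p of 0.1, the smallest possible.

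Other genes of the same pathways did not move as one. Of 62 such genes in the table, 60 were tested, and 31 were lower, 23 higher and 6 not past the threshold, with a median log2 fold change of -0.19. Of all genes tested, 38.6% were lower and 39.0% higher at this threshold, and 14.7% and 12.4% by at least 2-fold. The counts of each list below are to be read beside these shares. All 4 tested genes of the list placed with the late sterol steps fell. LBR, the C14 sterol reductase that is also a lamin receptor, went from 104 ± 3.74 to 23.3 ± 2.54 CPM (log2 fold change -2.16, SE 0.065), and ERG28, a scaffold of sterol demethylation, fell by 1.59 (SE 0.051). FAXDC2, at a low level, fell by 1.06 (SE 0.232), from 2.89 ± 0.366 to 1.37 ± 0.408 CPM, and TMEM97 by 0.48 (SE 0.049). With TM7SF2, both genes for C14 reduction were thus lower.

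Of 9 tested genes of SREBP processing and sterol-regulated degradation, 3 were lower and 5 higher. The genes of the proteases that release SREBP fell by less than 2-fold, MBTPS1 by 0.31 (SE 0.035) and MBTPS2 by 0.59 (SE 0.046) on the log2 scale. ERLIN2, of the complex that binds sterol-sensing proteins in the endoplasmic reticulum, fell by 1.12 (SE 0.057), and RNF139, a ubiquitin ligase there, rose with a log2 fold change of 1.03 (SE 0.058). Of 10 genes of the isoprenoid branches, which use the product of FDPS, 6 were lower and 3 higher. FNTB, the beta subunit of farnesyltransferase, fell by 1.71 (SE 0.176) and PDSS1, which makes the ubiquinone tail, by 1.67 (SE 0.1). FNTB shares 56550 bases with MAX in the deposited positions, so its counts are uncertain.

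Of 13 tested genes of sterol storage, transport and oxysterol receptors, 3 were lower and 8 higher. ABCG1, a sterol exporter and textbook target of the LXR receptors, rose from 2.08 ± 0.149 to 20.8 ± 1.94 CPM, with 72, 100 and 85 reads in untreated and 743, 767 and 717 in rhCYGB libraries (log2 fold change 3.32, SE 0.11, adjusted p = 5.71e-13). ABCA1, another such exporter, had a log2 fold change of 0.66 (SE 0.163, adjusted p = 0.00182), NR1H2, the gene of LXR beta, one of 1.35 (SE 0.045) and GRAMD1A, a sterol transfer protein, one of 1.25 (SE 0.036). NR1H3, the gene of LXR alpha, fell by 0.82 (SE 0.173). LIPA, the lysosomal lipase that frees cholesterol from its esters, fell from 952 ± 23.0 to 238 ± 8.17 CPM (log2 fold change -2.0, SE 0.038), NPC1, which exports that cholesterol from lysosomes, fell by 0.36 (SE 0.046), and SOAT1, which esterifies cholesterol, did not pass (log2 fold change -0.05, adjusted p = 0.317). The count of 8 higher genes became 4 with upper-quartile factors, with total counts and with limma on FPKM.

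Of 24 tested other fatty acid and glycerolipid genes, 15 were lower, 7 of them by at least 2-fold, and 7 higher, 3 of them by at least 2-fold. SCD5, the second desaturase gene of this kind, fell by 1.71 (SE 0.094), ACSL1, a fatty acyl-CoA ligase, by 1.65 (SE 0.059), ACACB, the mitochondrial carboxylase, by 1.27 (SE 0.147), the elongase ELOVL2 by 1.16 (SE 0.228), the phosphatidate phosphatase LPIN1 by 1.09 (SE 0.039) and the dehydratase HACD3 by 1.06 (SE 0.046). ACSL5 had 18, 15 and 13 reads in untreated and 0 in all rhCYGB libraries, at least 4.2-fold lower at a floor of 3 reads in a library, and it shares 3969 bases with ZDHHC6. MID1IP1, which promotes the polymerisation of acetyl-CoA carboxylase, rose with a log2 fold change of 1.85 (SE 0.063), FADS3 with 1.53 (SE 0.047) and ELOVL7 with 1.40 (SE 0.091). The desaturase family thus split, with FADS1 and FADS3 higher and FADS2, SCD and SCD5 lower. Of the listed elongase genes tested, only ELOVL7 was higher, and ELOVL6, ELOVL2, ELOVL1 and ELOVL5 were lower. The log2 fold change was -0.38 for ELOVL1 and -0.20 for ELOVL5.

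**Figure D5:**
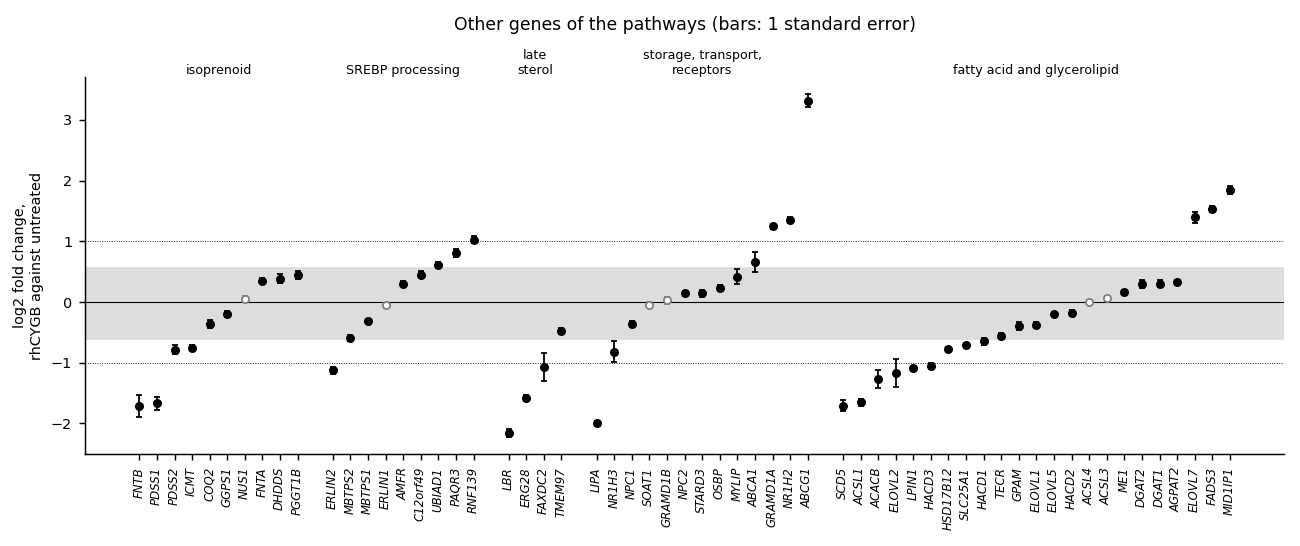
Log2 fold change, rhCYGB against untreated, of 59 other genes of the pathways by list, with bars of 1 SE, filled points for an adjusted p under 0.05 and the 25th to 75th percentile of all genes in grey (ACSL5, at 0 in every rhCYGB library, is left out). ABCG1 is the highest point at 3.32 and LBR the lowest at -2.16, and filled points lie on both sides of 0 in every list but the late sterol list.

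The libraries held 34838399 to 42271299 counts, and 3 counts corresponded to 0.0669 to 0.0902 CPM. The defining markers gave the label of a carcinoma line only in part, with KRT8, KRT18, KRT19 and VIM at 5886 or more counts in each library but EPCAM at 0 and CDH1 at 0 to 2 counts. Of the markers of other cell types, PTPRC, PECAM1, CPA1 and CTRB1 were at 0 in every library, COL1A1 reached at most 10 counts, DES 3 and PDGFRB 5, ACTA2 did not pass the test, CD68 was higher by a log2 fold change of 0.99, and CDH5 fell from 117 to 12.2 CPM and COL1A2 from 142 to 6.86 CPM. The summed level of the 2 endothelial markers, which was CDH5 alone, was 109 to 122 CPM in untreated and 10.5 to 13.6 CPM in rhCYGB libraries. That of the 5 stellate cell and fibroblast markers was 143 to 155 and 11.4 to 13.2 CPM, and its fall was that of COL1A2. The summed level of the 6 epithelial and carcinoma markers was 11761 to 12160 CPM in untreated and 14501 to 15222 CPM in rhCYGB libraries. The rise of this sum came from VIM, which went from 8013 to 11744 CPM and which the paper also uses to mark stellate cells. Of the keratins, KRT8 fell from 2085 to 1190 CPM and KRT19 from 260 to 171 CPM. KRT18 did not pass the test (1648 and 1694 CPM). The summed level of the 2 blood markers, which was CD68 alone, was 34.3 to 38.0 and 70.4 to 72.4 CPM. All 4 markers of cycling cells fell, with MKI67 lower by a log2 fold change of -2.0, TOP2A of -1.51, PCNA of -2.41 and CCNB1 of -1.34, and with a summed level of 1243 to 1335 CPM in untreated and 405 to 412 CPM in rhCYGB libraries. The part of these differences in the module's fall was not tested, and in bulk libraries fewer cells of a kind and less RNA for each cell cannot be told apart.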

How the data were processed

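Gene expression was measured by stranded mRNA sequencing of 3 untreated and 3 rhCYGB-treated MIA PaCa-2 libraries. The authors checked reads with FastQC 0.11.7, mapped them with HISAT2 2.1.0 and assembled transcripts with StringTie 2.1.3b, as the submitters' processing notes list them. The authors deposited read counts per gene and per transcript as whole numbers without normalization, and FPKM values, which are relative to transcript length and mapped fragments. The deposited TPM values were not used. The labels name a mouse build, whereas identifiers and positions are human. The files name no build, and positions are printed as deposited. Members were matched by symbol, and the members and lists were chosen with earlier results of these data known.

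Counts were analysed in R 4.3.3 with edgeR 4.0.16 (filterByExpr, TMM factors, quasi-likelihood test, 3 libraries against 3 with no block, Benjamini-Hochberg adjustment over all 14728 genes or 32577 transcripts), after the fits had been tested on simulated data. The biological coefficient of variation was 5.48%. CPM used TMM-scaled library sizes. The 95% intervals come from the edgeR fit and cover the spread between libraries, whereas floors of 3 counts cover counting error only. Named were all 32 members, other listed genes past 2-fold, and transcripts with at least 10% of a member's counts in the 4 members with the largest shifts in share at a mean of at least 1000 counts, with SREBF1. Other genes or transcripts named were chosen after their values were seen. Alternatives used DESeq2 1.42.0, limma 3.58.1 on log2(FPKM + 1) and log2(FPKM + 0.1), other scalings and filters, a replicate block and leaving out each library. Libraries of a group differed by 4.67 to 6.61 times the counting noise (chi-square over degrees of freedom), so none looked like a repeat deposit of another, which does not show that they came from separate cultures.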

Additional observations from a re-analysis of the deposited data

How the results depend on the processing

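Over 15 alternatives, 28 members were lower in each, 19 to 21 were lower by at least 2-fold and 0 were higher by at least 2-fold. The count of higher members was 3 except with limma on log2(FPKM + 1) and log2(FPKM + 0.1), where it was 1, FADS1, and SCAP had an adjusted p of 0.0545 and 0.0539 and SREBF2 of 0.0622 and 0.0643. Upper-quartile factors moved the median log2 fold change of all genes to -0.15 and total counts moved it to -0.17, and the share of 2-fold calls that were higher went from 45.8% to 35.5% and 33.9% (35.5% with log2(FPKM + 0.1)). With upper-quartile factors, total counts, log2(FPKM + 1) and log2(FPKM + 0.1), in that order, the median was -1.74, -1.76, -1.67 and -1.74 for mevalonate genes, -1.42, -1.45, -1.39 and -1.44 for late sterol genes, and -0.30, -0.32, -0.31 and -0.31 for regulators. For fatty acid genes it was -1.41, -1.44 and -1.43 with the first, second and last of these. Among the other sterol storage and transport genes, total counts gave 5 lower in place of 3, and among the other fatty acid genes total counts and limma on FPKM gave 4 higher in place of 7. Leaving out 1 library gave medians of -1.63 to -1.55 for mevalonate, -1.30 to -1.25 for late sterol, -0.18 to -0.12 for regulators and -1.28 to -1.25 for fatty acid genes. The replicate numbers did not pair the libraries (correlations of same-numbered libraries -0.048, 0.0072 and 0.0055). With the replicate block the counts were 28 lower, 19 lower by at least 2-fold and 3 higher, and the medians -1.60, -1.28, -0.16 and -1.27, but IDI1 NR_134301 no longer passed (adjusted p = 0.0768) and FADS2 NM_001281501 and NM_001281502 did (0.0355 and 0.0448). Without rhCYGB replicate 2, LSS NM_001145437 changed sign, from -0.40 to 0.085 (-0.93 to 0.085 over the 6 libraries left out), and NM_002340 passed (adjusted p = 0.0276). Without rhCYGB replicate 1, FADS2 NM_004265 passed (0.0356), and without untreated replicate 1 ACACA NM_198834 (0.00859) and FADS2 NM_001281501 (0.0161) did. FADS2 NM_001281501 also passed with total counts (0.0492) and with at least 10 counts in every library (0.0352). The causes were not tested, and 3 libraries a group limit exact tests to p = 0.1.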
